A study of Mus musculus with 15 samples.

Results

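The 8 genes described here encode the enzymes that write, copy and oxidise DNA methylation in the mouse, and the cofactors of the writers: Dnmt1, Uhrf1, Dnmt3a, Dnmt3b, Dnmt3l, Tet1, Tet2 and Tet3. They were taken by name from the 22350 protein-coding genes on chromosomes 1 to 19 and X, and the rule uses no measured value. The choice was nonetheless made with earlier results of these data known. Each was examined as a window, its gene span on mm9 widened by 10 kb on each side, so that the windows ran from 40.2 kb at Uhrf1 to 128.4 kb at Dnmt3a. The measure was the number of bases in the window that lay under a peak, here called covered bases.

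Chromatin immunoprecipitation followed by sequencing was done for H3K27ac, a mark of active promoters and enhancers, and for H3K4me1, a mark of enhancers whether or not they are active. The embryonic stem cells (ESCs) were J1, a mouse line, the labels give strain 129SV for all 3 cell states without naming the line behind the other two, and the 15 samples comprised 2 per state and mark and 1 input per state. ESCs were grown with serum, LIF (1000 units/mL), CHIR99021 (3 µM) and PD0325901 (1 µM), a MEK inhibitor. D-EPSCs, the expanded potential stem cells of the Deng laboratory's medium, were converted from ESCs in N2B27 with serum replacement, the same LIF and CHIR99021, dimethindene maleate (2 µM) and minocycline hydrochloride (2 µM), without serum or PD0325901. L-EPSCs, those of the Liu laboratory's medium, were likewise converted from ESCs and had serum replacement, the same LIF, CHIR99021 and PD0325901, and also A-419259 (0.3 µM), XAV939 (5 µM), JNK inhibitor VIII (4 µM) and SB203580 (10 µM). ESCs and L-EPSCs were kept on mouse fibroblast feeder cells or on gelatin, and per the study's methods both EPSCs were grown without feeders over several passages ahead of ChIP-seq.

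Both samples of a state and mark stood in 1 deposited peak list, so no spread between replicates could be measured and no test was made. Depth and signal height are unknown from peak positions. The H3K27ac lists held 64342 peaks over 107.4 Mb in ESCs, 32782 over 44.4 Mb in D-EPSCs and 26966 over 34.3 Mb in L-EPSCs, while the H3K4me1 lists were of more similar length, at 102751 to 107222 peaks over 173.1 to 221.1 Mb. Counts of members that differed from ESCs are therefore set beside the same share over all gene windows, and comparisons of either EPSC with ESCs share the ESC list. Of 8 pluripotent markers 7 were found by symbol, and 6 of these (Pou5f1, Sox2, Nanog, Klf4, Zfp42 and Dppa5a) had H3K27ac at the gene start in each state, against 0 of 8 fibroblast markers in any state. H3K4me1 did not part the lists in this way, with a peak at the start of 2, 6 and 6 pluripotent and of 7, 6 and 7 fibroblast markers in the ESC, D-EPSC and L-EPSC lists.

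Dnmt1 copies methylation onto the new strand after replication, and Uhrf1 brings it to hemimethylated sites. Dnmt3a and Dnmt3b methylate DNA anew, and Dnmt3l, which has no catalytic activity of its own, stimulates both. The Tet enzymes oxidise 5-methylcytosine, a step towards its removal, and Tet1 and Tet2 are the forms best known from mouse ESCs, whereas Tet3 is best known from the oocyte and zygote. Dnmt3a has a long form, made from the gene's first promoters, and a shorter form, Dnmt3a2, made from a promoter inside the gene and known as the main form in ESCs. Low DNA methylation is a known property of ESCs grown with both a MEK inhibitor and a GSK3 inhibitor. Methylation itself was not measured in these samples.

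Of the 5 sequences below, 4 come from places where a peak lay in some of the 3 states and not in others, chosen after their values were seen, and the long-form start of Dnmt3a is shown as the counterpart of its inner start. Among them, 4 are the 250 bases before an annotated start site and 1 is the central 300 bases of a region, all read from the mm9 genome 5′ to 3′ on the strand of the gene. Capitals mark CpG, the dinucleotide on which these enzymes act.
Dnmt3a, before the inner start, chr12:3891478-3891727, plus strand: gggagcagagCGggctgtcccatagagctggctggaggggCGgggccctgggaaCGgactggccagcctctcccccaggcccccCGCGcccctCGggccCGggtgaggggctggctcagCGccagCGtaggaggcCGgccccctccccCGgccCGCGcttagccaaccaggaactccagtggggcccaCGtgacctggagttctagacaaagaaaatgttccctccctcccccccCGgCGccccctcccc
Dnmt3a, before the long-form start, chr12:3806780-3807029, plus strand: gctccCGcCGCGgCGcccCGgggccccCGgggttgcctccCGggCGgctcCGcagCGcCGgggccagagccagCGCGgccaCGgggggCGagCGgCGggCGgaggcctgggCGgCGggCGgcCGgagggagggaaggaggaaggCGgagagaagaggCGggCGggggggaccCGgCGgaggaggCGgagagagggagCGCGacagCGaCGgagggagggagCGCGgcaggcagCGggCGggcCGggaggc
Dnmt3l, before the inner start, chr10:77512337-77512586, plus strand: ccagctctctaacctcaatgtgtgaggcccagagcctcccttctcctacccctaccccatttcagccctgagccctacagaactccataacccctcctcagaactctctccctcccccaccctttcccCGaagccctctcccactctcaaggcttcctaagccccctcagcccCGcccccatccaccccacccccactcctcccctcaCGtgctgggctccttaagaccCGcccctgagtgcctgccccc
Tet3, before the start of transcript Tet3-001, chr6:83391670-83391919, minus strand: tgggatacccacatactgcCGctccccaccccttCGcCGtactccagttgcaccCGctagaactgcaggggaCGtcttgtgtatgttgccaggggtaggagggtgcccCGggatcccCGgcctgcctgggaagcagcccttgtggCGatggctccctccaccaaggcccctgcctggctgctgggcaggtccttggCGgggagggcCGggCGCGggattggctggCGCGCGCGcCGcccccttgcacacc
Dnmt3b, region upstream of the gene, chr2:153468509-153468808, plus strand: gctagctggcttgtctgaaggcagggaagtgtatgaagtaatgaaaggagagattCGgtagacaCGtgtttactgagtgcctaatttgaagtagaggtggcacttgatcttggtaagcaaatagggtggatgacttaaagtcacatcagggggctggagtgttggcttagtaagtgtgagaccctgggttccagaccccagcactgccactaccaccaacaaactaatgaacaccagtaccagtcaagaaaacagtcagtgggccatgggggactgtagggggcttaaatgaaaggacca

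The inner start of Dnmt3a was preceded by 16 CpG in 250 bases, and 30.6% of the 22350 promoters of that length held at least as many. The long-form start of the same gene had 37, a number that 2.54% of promoters reached, and Tet3 had 17, reached by 28%. The inner start of Dnmt3l had only 4 CpG, below the median of 8 over all promoters. Of the members not printed, Tet2 had the most CpG before its start, 51 (0.0761% of promoters), and Tet1 had 4. The Dnmt3b region held 2, against a median of 3 over the central 300 bases of 70360 H3K27ac regions. Among the promoters of the members the CpG count thus ran from 4 to 51.

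Motifs were searched as exact letters on both strands, and matches of different motifs may share bases. The motif CCCTCCCCC, bound by zinc finger proteins of the Maz and Zfp281 kind, occurred 2 times before the inner start of Dnmt3a and 1 time before that of Dnmt3l, against 4.55% of promoters with a match. The E-box CACGTG occurred 1 time before each of these 2 inner starts (6.52% of promoters) and 1 time in the Dnmt3b region, where 5.07% of the 70360 H3K27ac regions had it in their central 300 bases. Both motifs were absent before the other printed starts and before the unprinted starts of Uhrf1, Tet1, Tet2, Dnmt1 and Dnmt3b. The GC box GGGCGG, found in 39.6% of promoters, occurred 6 times before the long-form start of Dnmt3a and 1 to 2 times before the other 3 printed starts. Neither the octamer ATGCAAAT (1.62% of promoters and 1.55% of regions) nor the Esrrb site TCAAGGTCA (0.331% and 1.42%) was in any of the 5 sequences printed.

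In bulk samples, a mark carried by fewer cells and a weaker mark in each cell cannot be told apart. H3K27ac was most extensive at Tet1 and Tet2 and nearly absent at Dnmt3b and Tet3. Per length, it covered 48.7% of the Tet1 window and 43.3% of the Tet2 window in ESCs, 39.2% at Uhrf1, 25.6% at Dnmt3l, 14.9% at Dnmt1 and 5.02% at Dnmt3a. Dnmt3b (1.62%) and Tet3 (0.267%) came last. Uhrf1 stood lower in the EPSCs, with 7.88% of its window for D-EPSCs and 3.55% for L-EPSCs, while Tet1 (18.1% and 16.6%) and Tet2 (27.6% and 20.8%) still headed the order, now with Tet2 first.

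H3K4me1 covered more of every window than H3K27ac in each of the 3 states. In ESCs it ran from 5.03% of the Tet3 window to 75.6% of the Uhrf1 window, with Tet1 at 69.7% and Tet2 at 58.6%. In D-EPSCs and L-EPSCs Tet1 had the highest share, 68.9% and 62%, and Uhrf1 stood at 32.6% and 28.4%.

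**Figure D1:**
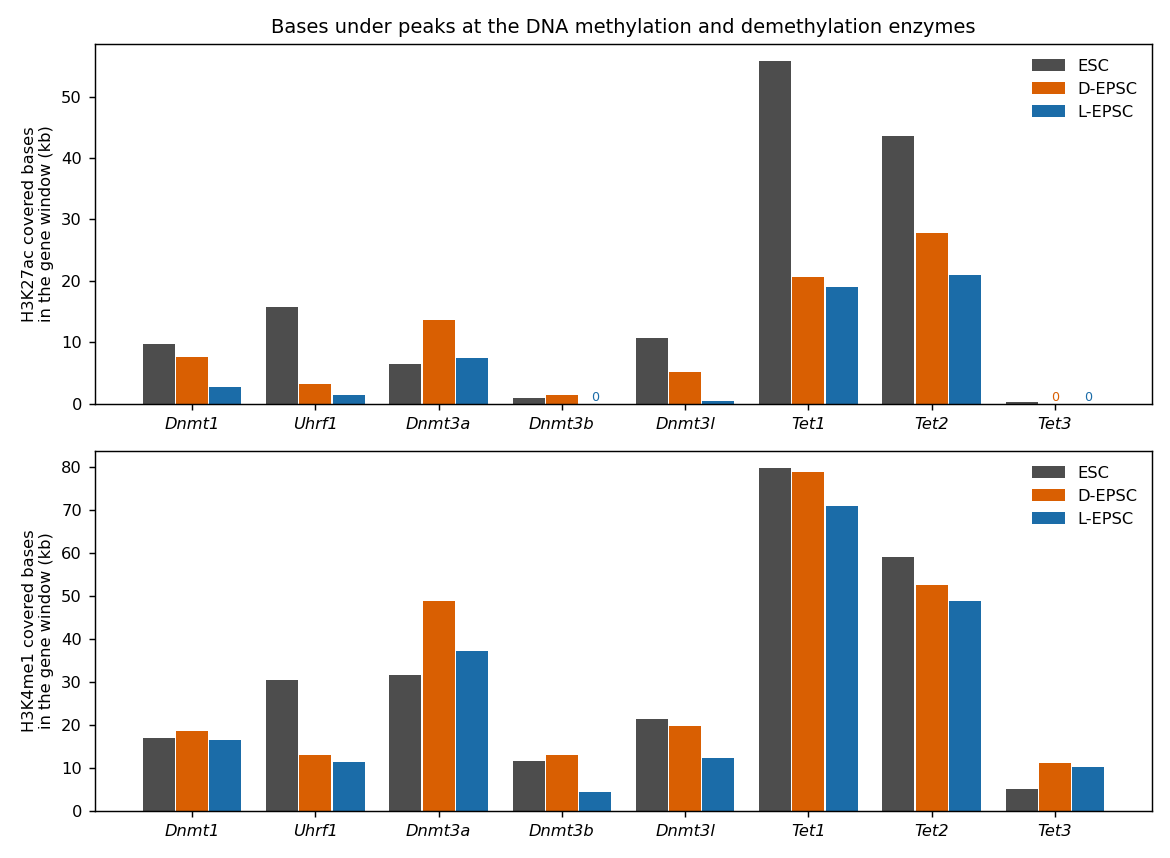
Covered bases in kb (vertical axis) in the window of each gene, for H3K27ac above and H3K4me1 below, with 1 bar per state and a 0 where a list had no peak. The H3K27ac bars of Tet1 stand at 55.8 kb in ESCs and at 20.7 and 18.99 kb in the EPSCs, whereas its H3K4me1 bars stay between 71.0 and 79.8 kb, and the bars of Dnmt3a are highest in D-EPSCs for both marks.

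A member was called when its covered bases differed by at least 2-fold and by at least 1 kb between states, and a window was assessed for a mark when at least 1 kb was covered in 1 of the 2 states. For H3K27ac in D-EPSCs against ESCs, 3 of 7 members had less (Uhrf1, Dnmt3l and Tet1), where 59.2% of 12059 gene windows did, and 1 had more (Dnmt3a), where 3.81% did. In L-EPSCs 5 of 6 members had less than in ESCs (Dnmt1, Uhrf1, Dnmt3l, Tet1 and Tet2; 77% of 11684 windows) and 0 had more (1.32%). Between the EPSCs, 4 of 7 members had less H3K27ac in L-EPSCs (Dnmt1, Uhrf1, Dnmt3b and Dnmt3l; 29.7% of 9447 windows) and 0 had more (5.05%). The counts of members with less H3K27ac than ESCs were near the shares of all windows. Dnmt3a was the 1 member with more, and the share of windows with more in D-EPSCs rose to 12% with lists of equal length and to 66.1% with lists of equal covered bases, settings under which Dnmt3a was still called.

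For H3K4me1 all 8 members were assessed. Against ESCs, D-EPSCs had more at 1 member (Tet3; 8.2% of 17332 windows) and less at 1 (Uhrf1; 5.33%), and L-EPSCs had more at 1 (Tet3; 8.53% of 17464) and less at 2 (Uhrf1 and Dnmt3b; 10.9%). L-EPSCs had less than D-EPSCs at 1 member (Dnmt3b; 3.68% of 17537) and more at 0 (2.58%). In both EPSCs at once, H3K27ac was less at Uhrf1, Dnmt3l and Tet1 (57.7% of 11594 windows) and more at 0 members (0.621%), and H3K4me1 was more at Tet3 (5.51% of 17124) and less at Uhrf1 (2.94%).

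Several calls lay just past the 2-fold threshold. The log2 ratio of H3K27ac was 1.09 at Dnmt3a and -1.03 at Dnmt3l in D-EPSCs over ESCs and -1.06 at Tet2 in L-EPSCs over ESCs, and that of H3K4me1 was 1.16 and 1.02 at Tet3. The call at Dnmt3l was lost with no flank, with peaks of at least 500 bp and with lists of equal length, and the call at Tet2 with no flank and with lists of equal length or equal covered bases, as was that at Tet1 in L-EPSCs with the last of these. Just short of the threshold lay H3K27ac at Dnmt3a in L-EPSCs over D-EPSCs (-0.87) and H3K4me1 at Dnmt3l in L-EPSCs over ESCs (-0.79). Over the 7 members with a ratio, the median log2 ratio of H3K27ac in D-EPSCs over ESCs was -0.65, against -1.21 over 10741 windows. In L-EPSCs it was -1.68 over 6 members and -1.72 over 9606 windows. For H3K4me1 the members' medians were 0.06 and -0.22, against -0.11 and -0.30.

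**Figure D2:**
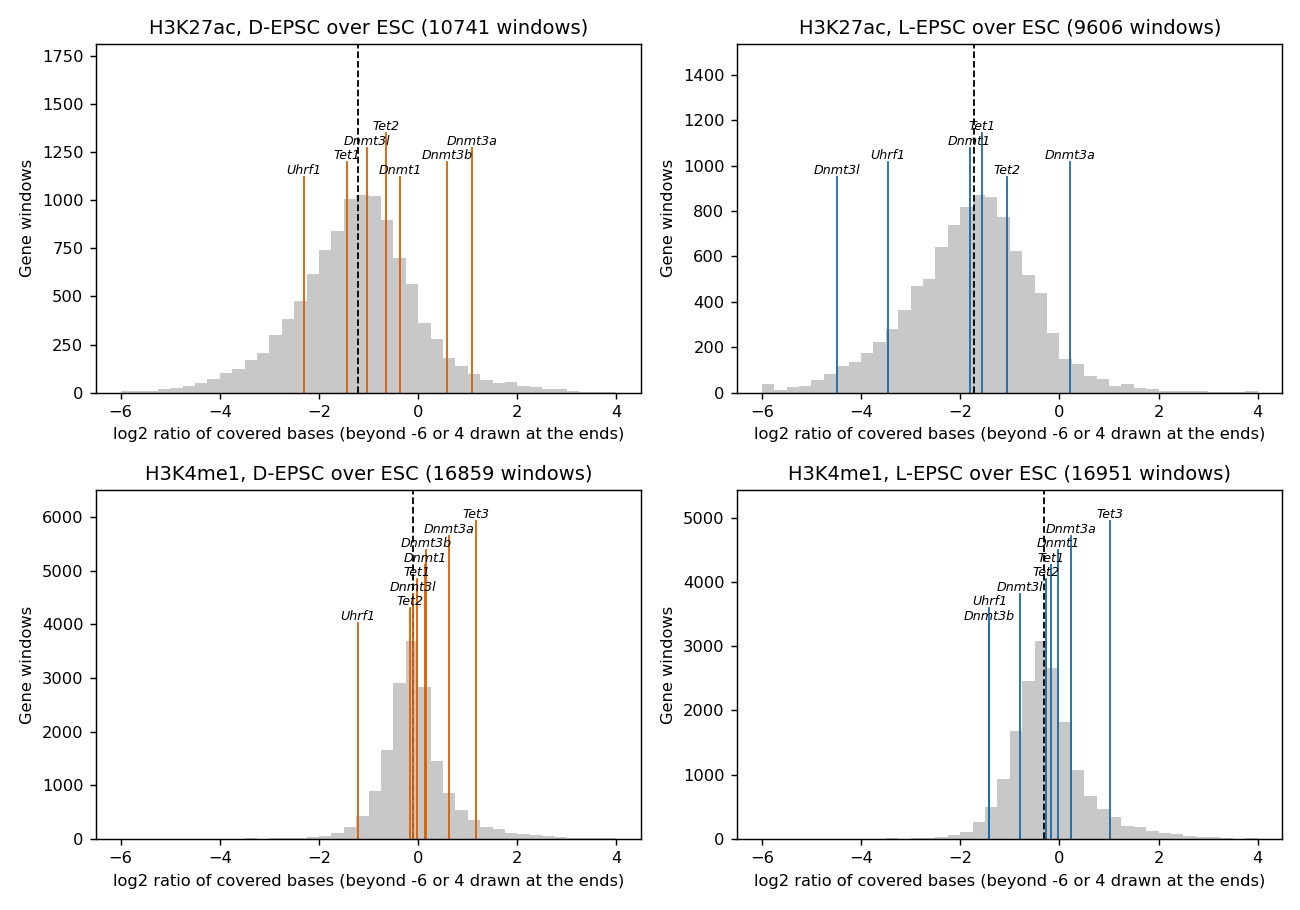
Number of gene windows (vertical axis) by log2 ratio of covered bases of an EPSC over ESCs (horizontal axis), for each mark and EPSC, with the median of all windows as a dashed line and the members as labelled lines. For H3K27ac most windows lie below 0, Dnmt3a lies to the right in both EPSCs and Dnmt3l and Uhrf1 to the far left in L-EPSCs, and for H3K4me1 Tet3 and Uhrf1 lie at opposite sides.

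Dnmt1 (chr9:20711650-20757317, minus strand) had H3K4me1 of like extent in the 3 states and less H3K27ac in L-EPSCs, an order against ESCs that turned when the lists were made equal in covered bases. H3K27ac covered 9.78 kb in the ESC list, 7.56 kb in the D-EPSC list and 2.79 kb in the L-EPSC list, and H3K4me1 16.9, 18.6 and 16.5 kb. The L-EPSC value of H3K27ac was therefore the low one, with a log2 ratio to ESCs of -1.81, and 46.9% of windows had a lower ratio. An intronic region of 4492 bp near the start was under H3K27ac throughout in ESCs, for 2306 bp in D-EPSCs and for 1689 bp in L-EPSCs, and all of it lay under H3K4me1 in each state. Within 1 kb of the start, H3K27ac covered 696, 1364 and 383 bp. A neighbouring gene, Eif3g, a subunit of a translation initiation factor, starts inside the window and had both marks at its start in each state.

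Uhrf1 (chr17:56442744-56462909, plus strand) had less of both marks in both EPSCs. H3K27ac covered 15.7, 3.17 and 1.43 kb in the ESC, D-EPSC and L-EPSC lists, log2 ratios to ESCs of -2.31 and -3.46, with 17.2% and 9.58% of windows lower. H3K4me1 covered 30.4, 13.1 and 11.4 kb, log2 ratios of -1.21 and -1.41, and only 3.05% and 3.65% of windows had a lower ratio. Both EPSC values were thus low for both marks, and for H3K4me1 they were low also among gene windows in general.

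The difference at Uhrf1 lay in its introns and flanks more than at its start. In the introns H3K4me1 covered 13222 bp in ESCs (88.7% of intron bases), 3147 bp for D-EPSCs and 3154 bp for L-EPSCs, and H3K27ac covered 2812 bp, 0 and 0. In the flanks H3K27ac covered 8551, 924 and 283 bp and H3K4me1 13635, 7819 and 5897 bp, in the order ESC, D-EPSC, L-EPSC. H3K27ac thus differed from ESCs by more bases in the flanks than in the introns. A pair of regions, 2309 and 5206 bp wide and 6140 and 9763 bp from the start, were under H3K4me1 throughout in ESCs and had no peak of either EPSC, and neither had H3K27ac in any state. At the start sites, 3087 bp in all, H3K27ac covered 3087, 2242 and 1143 bp, while H3K4me1 ran the other way, at 915, 1573 and 2351 bp. The start sites of all protein-coding genes had these directions too. Their log2 ratios to ESCs in D-EPSCs and L-EPSCs were -0.33 and -0.80 for H3K27ac and 0.59 and 0.67 for H3K4me1. The ESC H3K27ac peak over the end of the gene, 4849 bp wide, overlapped peaks of 446 bp in the D-EPSC list and 0 bp in the L-EPSC list. Kdm4b, a histone demethylase, starts 22741 bp from the start of Uhrf1 and had H3K27ac at its start in ESCs and D-EPSCs, and Arrdc5 has its start near that of Uhrf1 on the other strand and had H3K27ac in ESCs alone, so part of the window belongs to neighbours.

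**Figure D3:**
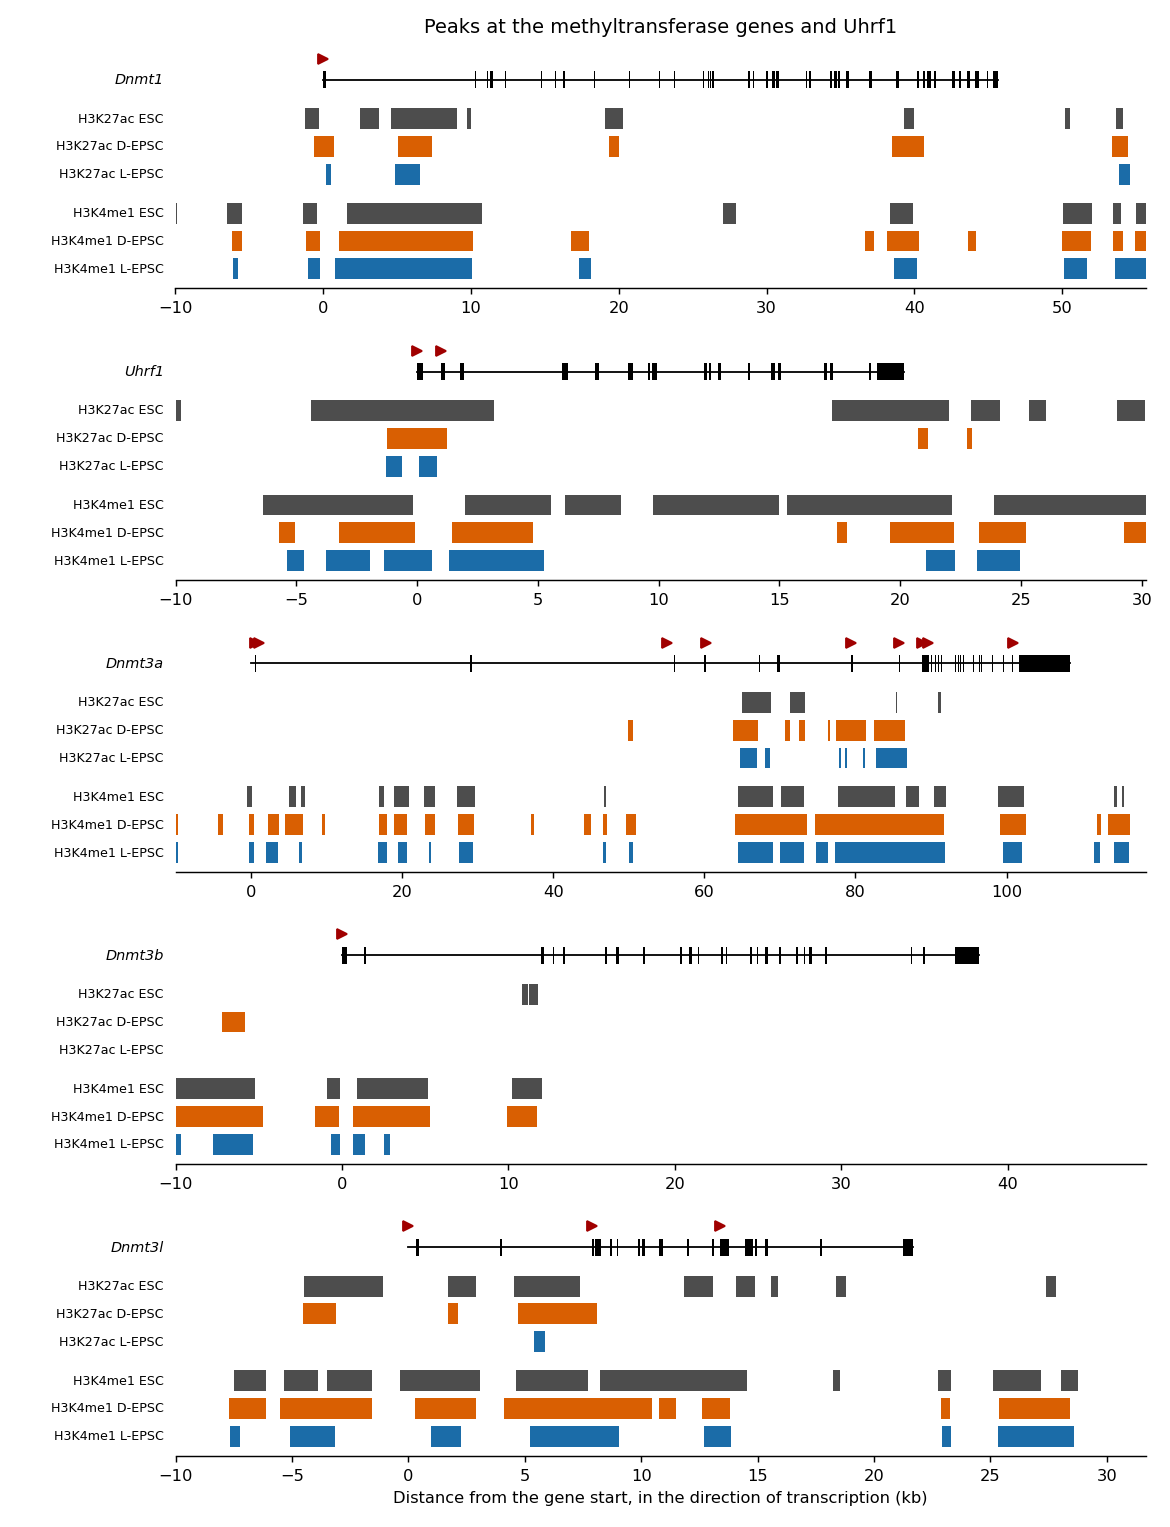
Peaks of each state and mark along the windows of Dnmt1, Uhrf1, Dnmt3a, Dnmt3b and Dnmt3l, by distance in kb from the gene start (horizontal axis), with exons of all transcripts as black blocks and start sites as red arrowheads. The introns of Uhrf1 are covered by H3K4me1 for 13222 bp in ESCs and for 3147 and 3154 bp in D-EPSCs and L-EPSCs, and the H3K27ac peak over the inner start of Dnmt3a is wide in both EPSCs, with 1 peak of 210 bp beside that start in ESCs.

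Dnmt3a (chr12:3806007-3914443, plus strand) was the member with more H3K27ac in D-EPSCs. H3K27ac covered 6.45 kb in the ESC list, 13.7 kb in the D-EPSC list and 7.51 kb in the L-EPSC list, and H3K4me1 31.6, 48.8 and 37.3 kb. D-EPSCs were high for both marks and L-EPSCs lay between, nearer to ESCs. The log2 ratio of H3K27ac in D-EPSCs over ESCs, 1.09, exceeded that of 96.8% of windows, and that in L-EPSCs over ESCs, 0.22, exceeded that of 95.6%. The H3K4me1 ratios of 0.63 and 0.24 exceeded 87.8% and 80% of windows and were not called.

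No H3K27ac lay within 1 kb of the gene start or of the long-form start of Dnmt3a in any state, and all of it stood at least 49947 bp into the gene. The start site of the transcripts Dnmt3a-005 and Dnmt3a-201 lies 85721 bp into the gene (chromosome 12, positions 3891728 to 3891744), and their coding sequence of 2070 bases, against 2727 in the long form Dnmt3a-001, is that of the shorter form. Within 1 kb of this inner start H3K27ac covered 210 bp in the ESC list, 1850 bp in the D-EPSC list and the whole span of 2017 bp in the L-EPSC list. H3K4me1 covered 549 bp there in ESCs and all 2017 bp in both EPSCs. Both EPSC lists were high and alike, and the ESC list was low for both marks, with no peak of either mark on the start itself.

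Among 31280 start sites of protein-coding transcripts, 3.03% had H3K27ac on the site in both EPSCs and not in ESCs. Of the 23 start sites of the members, 1 did, this inner start of Dnmt3a, and it was singled out after its values were seen. For H3K4me1 the same pattern held at 5 of the 23 (3 at Dnmt3a, 1 at Dnmt3l and the start of Tet3), against 13.6% of all start sites. The H3K27ac values in the EPSCs, 1850 and 2017 bp, were unchanged when only peaks of at least 500 bp were kept or when the lists were made equal in length or in covered bases, and the ESC value was then 0. Each of these settings drops the narrowest peaks, and the peaks here were 4175 and 4086 bp wide in D-EPSCs and L-EPSCs and 210 bp in ESCs. The outcome followed from these widths, so it adds no support to the difference.

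The peak over the inner start was part of a wider acetylated stretch. The region that holds it, 4458 bp wide, was covered for 210, 4175 and 4086 bp in the ESC, D-EPSC and L-EPSC lists. The next region towards the gene start, 3940 bp wide and over the start of the short transcript Dnmt3a-010, had 0 bp in the ESC list, 3940 bp in the D-EPSC list and 622 bp in the L-EPSC list, so it was largely a D-EPSC region. It was also the 1 region among 63 H3K27ac regions of the member windows with peaks in both EPSCs and none in ESCs, where 2.35% of the 70360 regions of the genome had that pattern. A region further up, 4984 bp wide, was acetylated in all 3 states, for 3906 bp in ESCs and 3222 bp in D-EPSCs. H3K4me1 marked much of the stretch in each state, for 10951 of 17408 bp in ESCs and 17178 bp in D-EPSCs, and the widest D-EPSC peak ranked 301 of 102751 in its list.

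**Figure D4:**
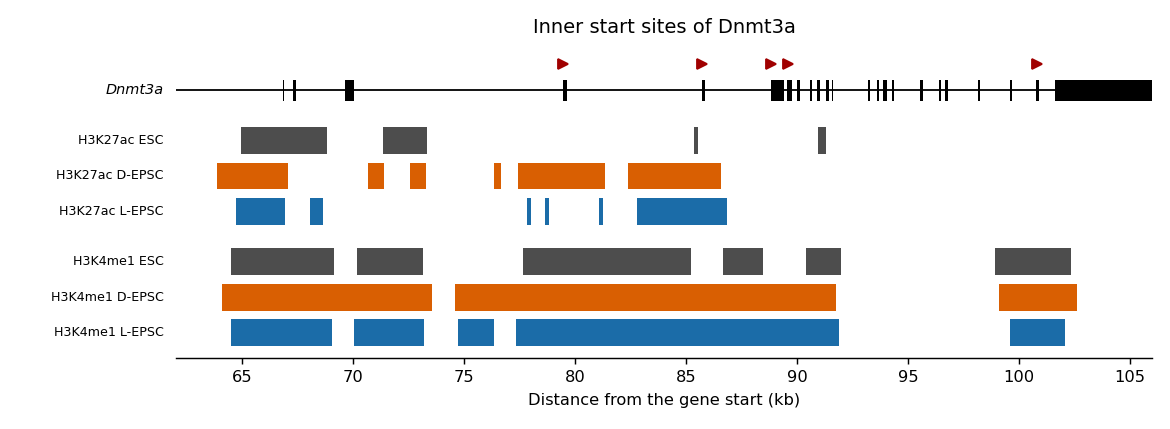
Peaks over the inner part of Dnmt3a by distance in kb from the gene start (horizontal axis), drawn as in the maps of whole windows. The arrowhead 85721 bp from the gene start marks the start of the shorter form, where a wide H3K27ac peak stands in D-EPSCs and L-EPSCs and one of 210 bp lies beside it in ESCs.

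Dnmt3b (chr2:153475186-153513466, plus strand) had little H3K27ac in any state and lacked most of its H3K4me1 in L-EPSCs. H3K27ac covered 0.942, 1.42 and 0 kb in the ESC, D-EPSC and L-EPSC lists, and none of it lay within 1 kb of the start. The ESC bases were a pair of intronic peaks of 383 and 559 bp, whereas the D-EPSC bases were 1 peak of 1417 bp upstream of the gene, at chr2:153467951-153469367, whose central sequence is printed above. Its bases lay wholly under H3K4me1 in each of the 3 states. H3K4me1 covered 11.7, 13.1 and 4.38 kb, and the L-EPSC value was low against both other states, with log2 ratios of -1.42 to ESCs (3.62% of windows lower) and -1.58 to D-EPSCs (0.729% lower). The bases absent from L-EPSCs were intronic and upstream, since the introns held 5678, 5751 and 558 bp of H3K4me1 and the flanks 4749, 5898 and 2716 bp. At the start site, 2168 bp in all, the lists held 1103, 1324 and 1050 bp.

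Dnmt3l (chr10:77504692-77526367, plus strand) had H3K27ac in a graded order, ESCs above D-EPSCs above L-EPSCs, of which the place of ESCs turned when the lists were made equal in covered bases. It covered 10.7, 5.22 and 0.474 kb, log2 ratios to ESCs of -1.03 and -4.49. The L-EPSC value was low both against ESCs (2.58% of windows lower) and against D-EPSCs (-3.46, 0.944% lower). H3K4me1 covered 21.3, 19.8 and 12.3 kb, and the share of it that also lay under H3K27ac was 39.4%, 26.3% and 3.84%. Thus most of the H3K4me1 of Dnmt3l stood without H3K27ac in each state, and nearly all of it in L-EPSCs. The lists as a whole also held less H3K27ac than H3K4me1 in each state. They held 107.4, 44.4 and 34.3 Mb of H3K27ac against 221.1, 187.5 and 173.1 Mb of H3K4me1 in ESCs, D-EPSCs and L-EPSCs. The same share was not computed over all windows.

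At the inner start of Dnmt3l, 7895 bp into the gene, the states kept another order. H3K27ac covered 494 bp within 1 kb of it in the ESC list, 1196 bp in the D-EPSC list and 0 in the L-EPSC list, and a peak lay on the start in D-EPSCs alone. The latter pattern held at 3 of the 23 start sites of the members (1 each at Dnmt1, Dnmt3a and Dnmt3l), against 4.06% of 31280 start sites. Around the inner start of Dnmt3l, H3K4me1 covered 1594 bp in ESCs and all 2118 bp in both EPSCs. The region that reaches this start, 3548 bp wide, was covered by H3K27ac for 2846 bp in ESCs and 3376 bp in D-EPSCs, and other regions further into the gene, 1223 and 811 bp wide, had peaks in ESCs alone. The gene start had no H3K27ac within 1 kb in any state. Aire, an autoimmune regulator on the opposite strand, starts 1663 bp from the start of Dnmt3l and had H3K27ac at its start in ESCs and D-EPSCs, and Icosl, a costimulatory ligand, starts 27413 bp away and had it in ESCs.

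Tet1 (chr10:62267318-62361866, minus strand) carried some of the widest domains of both marks in all 3 states and had less H3K27ac in both EPSCs. H3K27ac covered 55.8 kb in the ESC list, 20.7 kb in the D-EPSC list and 18.99 kb in the L-EPSC list, log2 ratios of -1.43 and -1.55, with 41.7% and 56.1% of windows lower, so the size of the difference was a common one. H3K4me1 covered 79.8, 78.9 and 71.0 kb. The EPSCs were alike and both below ESCs in H3K27ac, and all 3 states were close in H3K4me1. The share of H3K4me1 bases that also had H3K27ac was 61.1% in ESCs but 22.7% and 22.6% in the EPSCs (D-EPSCs first). The H3K27ac lists themselves covered 107.4, 44.4 and 34.3 Mb in ESCs, D-EPSCs and L-EPSCs, and the same share was not computed over all windows.

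The widest H3K27ac peak of Tet1, 27139 bp around the gene start, ranked 53 of 64342 in ESCs. In D-EPSCs the widest was 13273 bp and ranked 63 of 32782, and in L-EPSCs 12797 bp and 50 of 26966. Tet1 therefore stayed near the top of each list while the peak was narrower in the EPSCs. All 2001 bp around the start were covered by both marks in each state. Introns held 39407, 15006 and 12434 bp of H3K27ac and 59201, 63322 and 56222 bp of H3K4me1, in the order ESC, D-EPSC, L-EPSC. A pair of intronic regions of 3207 and 1845 bp had H3K27ac in ESCs alone, and both lay wholly under H3K4me1 in D-EPSCs. In L-EPSCs 2490 bp of the first and the whole of the second did.

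Tet2 (chr3:133126643-133207354, minus strand) had less H3K27ac in L-EPSCs, just past the 2-fold threshold. H3K27ac covered 43.6, 27.8 and 20.9 kb in ESCs, D-EPSCs and L-EPSCs, log2 ratios to ESCs of -0.65 and -1.06, and 71.1% and 73.1% of windows had lower ratios. H3K4me1 covered 59.1, 52.5 and 48.8 kb, in the same order but with smaller differences. Near the start the states differed less, since a region of 15724 bp at the start held 14186, 14073 and 11243 bp of H3K27ac and a region of 12972 bp in the intron 12376, 12510 and 9655 bp. The difference lay further in, where a region of 9880 bp held 9880, 1225 and 0 bp in the ESC, D-EPSC and L-EPSC lists and still had 9880 bp of H3K4me1 in the D-EPSC list and 8767 bp in the L-EPSC list.

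The widest H3K27ac peak of Tet2 ranked 1069 of 64342 in ESCs (9880 bp), 82 of 32782 in D-EPSCs (12510 bp) and 390 of 26966 in L-EPSCs (6951 bp). Tet2 was the member without H3K4me1 within 1 kb of its start in ESCs, where the lists held 0, 160 and 227 bp in the 3 states, beside 1622, 1926 and 1511 bp of H3K27ac. No H3K4me1 peak lay on the start itself in any state.

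**Figure D5:**
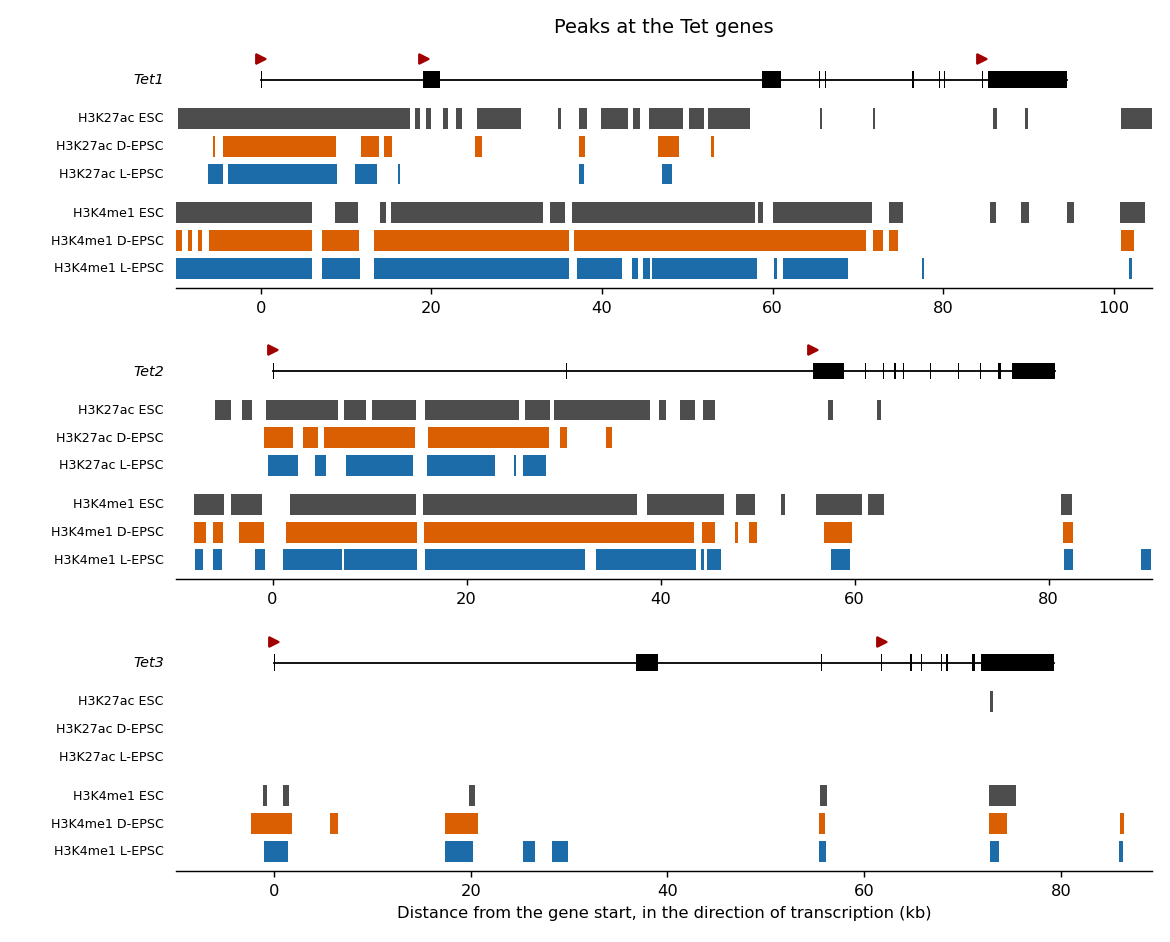
Peaks of each state and mark along the windows of Tet1, Tet2 and Tet3, by distance in kb from the gene start (horizontal axis), with exons as black blocks and start sites as red arrowheads. The H3K4me1 tracks of Tet1 and Tet2 look alike in the 3 states while their H3K27ac tracks are emptier in the EPSCs, and Tet3 has H3K4me1 peaks at the start that are wide in the EPSCs and no H3K27ac there.

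Tet3 (chr6:83312367-83391672, minus strand) had almost no H3K27ac and more H3K4me1 in both EPSCs. The H3K27ac of its window was 1 peak of 265 bp over an exon in ESCs and 0 in both EPSCs, so that it could not be assessed by ratio. H3K4me1 covered 5 kb in the ESC list, 11.2 kb in the D-EPSC list and 10.1 kb in the L-EPSC list, log2 ratios of 1.16 and 1.02, above 94.6% and 93.4% of windows. Both EPSC values were high and alike. Within 1 kb of the start H3K4me1 covered 389, 2004 and 1996 bp in the ESC, D-EPSC and L-EPSC lists, and a peak lay on the start in both EPSCs alone. An intronic region 3363 bp wide had 597, 3351 and 2829 bp, and a pair of intronic regions of 1709 and 1194 bp had H3K4me1 in L-EPSCs alone. With no flank the log2 ratios were 0.89 and 0.93 and neither was called.

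Within 1 kb of the gene start the members divided in the same way in each state. H3K27ac was present there at 4 of 8 members (Dnmt1, Uhrf1, Tet1 and Tet2) in each of the ESC, D-EPSC and L-EPSC lists, against 35.7%, 35.3% and 28.8% of all genes. The other 4 (Dnmt3a, Dnmt3b, Dnmt3l and Tet3) had it in no state. The division depended on the 1 kb. On the first base of the gene H3K27ac lay at 3, 4 and 2 members, against 21.4%, 24.4% and 17.4% of all genes. Dnmt1 had it there in D-EPSCs alone and Uhrf1 in ESCs and D-EPSCs. With peaks of at least 500 bp the count within 1 kb was 3 in L-EPSCs, and with lists of equal length 3 in ESCs. H3K4me1 was present at 7 of 8 in ESCs and at 8 of 8 in both EPSCs, against 57.5%, 67.1% and 68%.

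Start sites and introns were then taken apart, with the 1 kb on either side of every start as start-site bases. Summed over the members, H3K27ac at start sites covered 10.3 kb in the ESC list, 12.6 kb in the D-EPSC list and 7.25 kb in the L-EPSC list. The D-EPSC sum did not exceed that of ESCs without Dnmt3a, when the sums were 10.1, 8.73 and 5.04 kb. In introns H3K27ac covered 100.6, 57.9 and 39.2 kb, log2 ratios to ESCs of -0.80 and -1.36, and leaving out any 1 member gave -0.98 to -0.51 and -1.64 to -1.19. Over all protein-coding genes the H3K27ac ratios were -0.33 and -0.80 at start sites and -1.63 and -2.09 in introns. At the members' start sites the ratios were 0.29 and -0.50, so in D-EPSCs their sum lay above ESCs, unlike that of all genes. That sign rested on Dnmt3a, as given above. In the members and in the genes in general, introns had lower ratios than start sites in each EPSC.

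For H3K4me1 the members' start sites held 19.2, 23.7 and 23.9 kb in the ESC, D-EPSC and L-EPSC lists. The log2 ratios were 0.30 and 0.32, against 0.59 and 0.67 over all genes. Leaving out any 1 member gave 0.12 to 0.48 and 0.13 to 0.55, and both lowest values came without Dnmt3a. By member, 5 were higher and 3 lower than ESCs in D-EPSCs, and 4 were higher and 4 lower in L-EPSCs. The members' introns held 170.5, 173.9 and 146.8 kb, log2 ratios of 0.03 and -0.22, against -0.38 and -0.63 over all genes. For introns, leaving out any 1 member gave -0.06 to 0.12 and -0.30 to -0.13.

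By region, 34 of the 63 H3K27ac regions in the member windows had a peak in ESCs alone (54.0%, against 53.6% of the 70360 regions of the genome), 14 in all 3 states (22.2% against 21.3%) and 10 in ESCs and D-EPSCs (15.9% against 9.87%). Among the 77 H3K4me1 regions, 48 were shared by the 3 states (62.3% against 52.7% of 124744). The make-up of the member regions was therefore close to that of the genome for ESC-only and shared H3K27ac, and no difference was tested.

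Other genes of DNA methylation, demethylation and repair numbered 41, all found in the annotation, and among them are readers of methylated DNA, binders of unmethylated CpG and base excision repair enzymes. H3K27ac was less than in ESCs at 17 of 36 genes assessed for D-EPSCs and at 30 of 35 for L-EPSCs, beside the 59.2% and 77% of all windows given above, and more at 1 in D-EPSCs, Gadd45g (0, 1.05 and 0 kb in ESCs, D-EPSCs and L-EPSCs), a stress-response gene linked to demethylation. Less H3K27ac in both EPSCs was called at 17 of the 41 genes, not all of which could be assessed, beside 57.7% of 11594 windows. Ordered by change in covered bases, which favours windows with much H3K27ac in ESCs, the first was Kdm2b (64.1, 16.5 and 6.7 kb). It binds unmethylated CpG and demethylates histones. The second was Zbtb38, a reader of methylated DNA (46.7, 18.9 and 17.9 kb). Next came Cxxc5, a CpG binder (20.5, 5.02 and 2.48 kb), and Idh2, an isocitrate dehydrogenase that makes the Tet cosubstrate 2-oxoglutarate (21.4, 8.62 and 8.29 kb). H3K4me1 was more in both EPSCs at 2 of 41, near the 5.51% of all windows, namely Cxxc4 (1.25, 4.09 and 3.1 kb), a Tet2-binding protein, and Zbtb33, a methyl-CpG reader (0, 1.08 and 3.26 kb), and less in both at 0. Taken singly, H3K4me1 was more than in ESCs at 3 genes and less at 0 for D-EPSCs, and more at 2 and less at 4 for L-EPSCs, near the 8.2%, 5.33%, 8.53% and 10.9% of all windows in that order. Neither of the 2 genes with more H3K4me1 had H3K27ac in any state.

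The genes whose windows were most like those of the members in the share covered by the 6 lists were found by Euclidean distance, in percentage points over the 6 shares. The gene nearest to Dnmt3a was Snrpg (3.78) and that nearest to Dnmt3l was Asap3 (5.9), while Dnmt3b was nearest to Tmem161b (2.63) and Ppig (2.81). Dnmt1 was nearest to Id4 (4.01) and Npc2 (4.36), and Uhrf1 to Ror2 (7.55) and Rere (7.57). Tet1 was nearest to Rhoa (5.68) and Kank3 (7.66), Tet2 to Prrc2b (6.58) and 9430023L20Rik (6.77), and Tet3 to Chst2 (0.365) and C1ql3 (0.813). The windows of Tet3 and of its nearest pair were all nearly or wholly empty of H3K27ac.

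The length of the lists moved with these results. When each list was reduced to its widest peaks until all had equal covered bases, ESCs kept 3725 H3K27ac peaks, D-EPSCs 13675 and L-EPSCs all 26966. The ESC list then had no H3K27ac at Dnmt1, Dnmt3a or Dnmt3l, and the order turned at Dnmt3l (0, 4795 and 474 bp for ESCs, D-EPSCs and L-EPSCs) and at Dnmt1 (0 in ESCs and 2788 bp in L-EPSCs, with a call of more in D-EPSCs too). Dnmt3a (11337 bp in D-EPSCs) kept the order it had, and 66.1% of 8032 windows then had more H3K27ac in D-EPSCs than in ESCs. Uhrf1 and Tet1 still had less in D-EPSCs, where 15.3% of windows did. For H3K4me1 the calls at Tet3, Uhrf1 and Dnmt3b against ESCs stood under equal length and under equal covered bases, where 25.5% and 27.9% of windows had more, as at Tet3, in D-EPSCs and L-EPSCs under the latter. How far depth, thresholds or the amount of the mark set the length of a list was not tested.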

How the data were processed

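ChIP-seq of H3K27ac and H3K4me1 was analysed from 6 deposited lists of broad peaks, 1 per state and mark. Per the labels and the study's methods, the authors aligned reads to mm9 with Bowtie2 2.3.5, used SAMtools 1.10 and called broad peaks with MACS against input. Peak thresholds, and whether the 2 samples were pooled before calling, are not given in the sources used here. The deposited columns are peak positions (chromosome, start and end), with no count, score or signal. Groups were taken from the sample labels.

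Gene models were GENCODE M1 on NCBIM37, the mm9 build, and 0 peaks passed the end of any of the 20 chromosomes. Start sites of protein-coding transcripts within 500 bp of each other were joined. Covered bases were counted in Python 3.11.15 with numpy 2.4.6, and the counting was tested on 10000 simulated windows with 0 errors. Regions were overlapping or touching peaks of the 3 states, joined per mark. All 8 members are named. Other pathway genes are named when called alike in both EPSCs, at most 4 per mark and direction, by the larger smallest change, apart from Gadd45g, the 1 gene called more in D-EPSCs. The members and gene lists were chosen with earlier results of these data known. Promoter sequences were read from NCBIM37. Alternatives were windows with no flank, a 1.5-fold threshold, peaks of at least 500 bp, lists of equal length or equal covered bases, and start sites of 500 or 2500 bp on each side. The start-site background over all genes and the alternatives at the inner start of Dnmt3a were added after seeing the data. For Dnmt3a and Dnmt3l the second most similar gene is not reported here.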

Additional observations from a re-analysis of the deposited data

How the results depend on the processing

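Of 90 alternative values of the counts of members, 80 stayed within 1.5 times the main count and 10 did not. With no flank, 2 members had less H3K27ac in L-EPSCs than in D-EPSCs, and 0 had more H3K4me1 than ESCs in D-EPSCs or in L-EPSCs. At 1.5-fold, 2 members (Dnmt3a and Tet3) had more H3K4me1 in D-EPSCs than in ESCs, and 2 (Dnmt3b and Dnmt3l) had less in L-EPSCs than in D-EPSCs. With lists of equal length, 2 (Dnmt3a and Dnmt3b) had more H3K27ac in D-EPSCs than in ESCs (12% of windows). With lists of equal covered bases, 4 had more H3K27ac in D-EPSCs (66.1% of windows) and 2 in L-EPSCs (61.6%) than in ESCs, 1 had less in L-EPSCs than in ESCs (17.8%), and 4 had H3K4me1 at the gene start in ESCs. Those lists keep fewer and wider ESC peaks by construction. Of the ratios of called members, 42 stayed on their side of 2-fold, 9 did not, and 0 changed sign where both states had covered bases. No ratio could be had at Dnmt3l in L-EPSCs over ESCs with peaks of at least 500 bp (0 and 9473 bp), nor where the shortened ESC list had no H3K27ac, at Dnmt1, Dnmt3a and Dnmt3l, with the values given above. No paired analysis was possible because both samples of a state and mark stood in 1 list, and for the same reason leaving out a replicate could not be run. Depth could not be read from peak positions, so that an absent peak is not an absent mark.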
